A study of Homo sapiens with 18 samples.

Results

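Newly made RNA of 8 genes, FTL, FTH1, TPT1, NACA, SEM1, SH3BGRL, AP3S1 and SRI, was followed through total, nuclear and cytoplasmic RNA of MDA-MB-453 cells. The 8 genes were picked by symbol from 12755 gene IDs because their new RNA had been seen to be much more abundant in cytoplasmic than in nuclear libraries and because none encodes a ribosomal protein. The cytoplasmic over nuclear values are therefore given as a description, without a test. All 8 passed the filter for testing, a mean of at least 10 units over the 18 libraries, as did 10191 genes in all. MDA-MB-453 is an established human breast cancer line of luminal type. The 6 groups of 3 libraries were JQ1-VHL total, JQ1-VHL nuclear, JQ1-VHL cytoplasmic, DMSO total, DMSO nuclear and DMSO cytoplasmic RNA. JQ1-VHL is a degrader of BET proteins, the titles of its samples call it dBET, and cells received it, or the solvent DMSO, for 3 h. Both treatments included 0.1 mM 4-thiouridine in the medium for the last 60 min, and both included Drosophila S2 cells added by cell count before the cells were opened with 1 mg/ml digitonin. Incorporated 4-thiouridine is read as a T-to-C change, so a T-to-C read is taken here as RNA made during the labelling hour. All 18 libraries came from labelled cells, so T-to-C reads of any other origin could not be measured. Libraries of polyadenylated RNA were read as 150 bp pairs, and values are T-to-C reads scaled by ERCC RNA, here called units. ERCC RNA was added by mass of RNA, so units are relative to the RNA mass of each library. Neither cell number nor RNA per cell is measured on this scale.

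A new mRNA is spliced and polyadenylated in the nucleus, bound by export factors and passed through the nuclear pore, after which it is translated and decays in the cytoplasm. BET proteins bind acetylated chromatin and help RNA polymerase II to move from pausing into elongation. The 8 genes have separate roles. FTL and FTH1 encode the light and the heavy chain of ferritin, the iron storage shell, whose translation is held back by iron regulatory proteins at a hairpin near the 5′ end of the mRNA. TPT1, the translationally controlled tumour protein, and NACA, the alpha subunit of the complex that meets nascent polypeptides at the ribosome, are known as terminal oligopyrimidine mRNAs, which start with a C followed by further pyrimidines, as mRNAs of ribosomal proteins do. SEM1 encodes a small acidic subunit of the proteasome lid that also sits in the TREX-2 export complex. SH3BGRL encodes a small protein with a thioredoxin-like fold. AP3S1 encodes a sigma subunit of the AP-3 adaptor, which sorts cargo towards lysosomes. SRI encodes sorcin, a calcium-binding protein of the penta-EF-hand family.

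The start of the transcript is shown for the genes whose group rests on it, with SH3BGRL beside them as a start without either feature. Of the 8 genes, 7 matched RefSeq start windows of GRCh38.p14, and sequences are the gene's strand, counted from 1 at the annotated start. For TPT1 (chr13:45341154-45341183, minus strand), NACA (chr12:56725270-56725299, minus strand) and SH3BGRL (chrX:81202102-81202131, plus strand) the first 30 bases are given. Capitals mark the opening run of C and T. For FTL (chr19:48965329-48965358, plus strand) bases 21 to 50 are given, with the letters CAGTG, those of the loop of iron-responsive elements, in capitals.
TPT1: CTTTTCCgcccgctcccccctccccccgag
NACA: CTTTCTgccgccatcttggttccgcgttcc
SH3BGRL: gccaaccgctgtttcagcccctagctggat
FTL: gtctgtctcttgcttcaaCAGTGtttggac
The opening run was 7 bases in TPT1 and 6 in NACA. A start at C followed by at least 4 bases of C or T, read on the gene's strand at the annotated start alone, was found in 4.07% of 35116 start windows and in 48 of 86 windows of ribosomal protein genes. Among the 7 matched genes it was found for TPT1 and NACA. CAGTG, searched on the gene's strand within the 50 bases after the start, was found in 6.48% of windows and, among the 7, for FTL. These matches describe letters in the annotated window and no more.

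The libraries held 1.58 to 6.77 M T-to-C reads, where M is 1e06, and a single read stood for 0.470 to 2.75 units. Read numbers carry counting error at the least. Copies made by PCR cannot be told from separate molecules here, so read numbers are not numbers of molecules. On the ERCC scale 3 libraries stood apart from their groups. DMSO cytoplasmic replicate 3 summed to 18.7 M units and replicate 2 to 1.80 M. DMSO total replicate 1 summed to 10.8 M units, and the other DMSO total libraries to 2.78 and 3.31 M. JQ1-VHL nuclear replicate 3 had the fewest reads, and 30.5% of its gene intervals were at 0. In total RNA the luminal markers KRT8 (4358 to 17300 units) and GATA3 (702 to 9935 units) were present, as the label of the line implies, while the basal marker TP63 held 3.61 to 18.1 units. Of the other lineage markers, COL1A1 held 194 to 1035 units and ALB 15.7 to 107 units, and KRT5, KRT14, PTPRC and PECAM1 were not analysed here.

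Of the 8 genes, 6 lay near the top of the cytoplasmic order, and FTH1 did not. The log2 ratio of cytoplasmic to nuclear units was taken between libraries of the same number, after adding 1 unit to each value, and averaged over 3 pairs. This ratio compares values per mass of RNA in each fraction, not amounts per cell. Ranks are among 5463 genes with a mean of at least 100 units that are not ribosomal protein genes. FTL had a log2 ratio of 5.84 ± 0.28 (SD, n = 3) under JQ1-VHL, rank 4, and of 4.58 ± 2.20 under DMSO, rank 3. SH3BGRL had 5.14 ± 0.06 under JQ1-VHL, rank 42, and 4.50 ± 2.69 under DMSO, rank 4. TPT1 had 5.65 ± 0.70 under JQ1-VHL, rank 11, and 4.44 ± 1.64 under DMSO, rank 5. These ratios compare with medians over all 5526 genes of that level of 1.91 under JQ1-VHL and 0.16 under DMSO. AP3S1 ranked 26 under JQ1-VHL at 5.32 ± 0.32 and 6 under DMSO at 4.31 ± 1.65. For SEM1 the ratio was 6.02 ± 0.43 under JQ1-VHL, rank 2, and 4.21 ± 1.89 under DMSO, rank 8. With NACA the values were 5.49 ± 0.36 under JQ1-VHL, rank 15, and 3.88 ± 1.83 under DMSO, rank 19. The DMSO ratios spread more than the JQ1-VHL ratios in these 6 genes, and in each the DMSO pair of replicate 3 was the highest and that of replicate 2 the lowest.

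SRI and FTH1 went against the description that joins the genes. SRI had log2 ratios of 4.12, 5.22 and 8.39 under JQ1-VHL, a mean that ranked 3, and of 1.71, 0.75 and 4.80 under DMSO, where its mean of 2.42 ranked 368. The highest of these rests on JQ1-VHL nuclear replicate 3, in which SRI had 0 reads, a count that allows up to 1.43 units. FTH1 averaged 2.52 ± 1.25 under JQ1-VHL, rank 2057, and 0.40 ± 1.59 under DMSO, rank 2387, beside the all-gene medians of 1.91 and 0.16. In the DMSO order the 2 IDs above FTL had no symbol, and the genes just below FTH1 were DAAM1, AKR7L, STRN3, TBCD and SNRPG at 0.40. The rule that named the genes gave no numeric limit. Between SEM1 and NACA the order held, among others, CYCS at 4.11, GTF3C6 at 4.08, RSL24D1 at 4.06 and CFL1 at 4.04, and VTI1B followed NACA at 3.87. Ribosomal protein genes, 63 at that level, had medians of 4.18 under JQ1-VHL and 2.68 under DMSO.

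**Figure D1:**
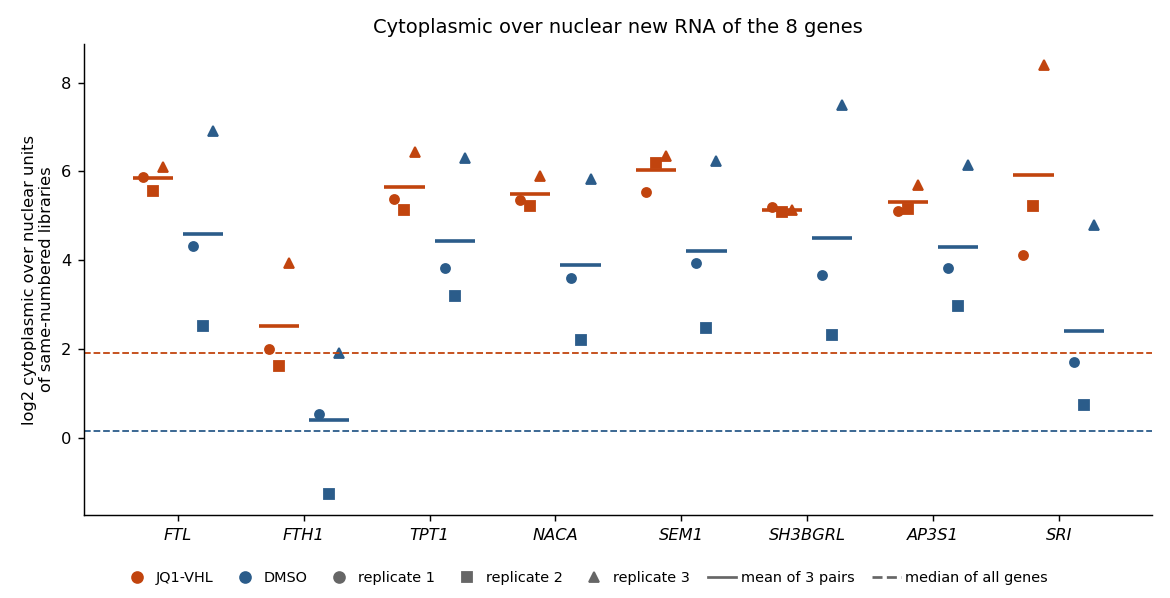
The log2 ratio of cytoplasmic to nuclear units is plotted for each gene and each pair of same-numbered libraries (points), with the mean of 3 pairs (bar) and the median over genes with a mean of at least 100 units (dashed lines, 1.91 for JQ1-VHL and 0.16 for DMSO). The mean bars of FTH1 lie near the dashed lines, while the JQ1-VHL points of the other 7 genes lie at 4.12 or above.

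On the ERCC scale the order of the groups was alike in the 6 genes with high ratios. Cytoplasmic means were highest, total means came next and nuclear means were lowest, under either treatment. That is an order of values per mass of RNA, not of amounts per cell. NACA, for example, averaged 72533 ± 9072 units in JQ1-VHL cytoplasmic RNA and 59342 ± 58802 units in DMSO cytoplasmic RNA (SD, n = 3 each). In total RNA NACA averaged 27555 ± 1266 units under JQ1-VHL and 20931 ± 15776 under DMSO. Nuclear RNA held 1668 ± 566 units of NACA under JQ1-VHL and 2659 ± 761 under DMSO. The ranges of DMSO total and DMSO nuclear libraries were apart in all 6 genes, whereas the cytoplasmic groups of JQ1-VHL and DMSO overlapped in all 8. FTH1 followed the same order of fractions within each treatment, but its DMSO nuclear mean was above its JQ1-VHL total mean. Its means were 742 units in JQ1-VHL cytoplasmic, 388 in JQ1-VHL total and 169 in JQ1-VHL nuclear RNA, against 1153 in DMSO cytoplasmic, 744 in DMSO total and 586 in DMSO nuclear RNA. Its DMSO groups overlapped each other along that order. Levels are not compared between genes, because the lengths counted are not given in the sources used here.

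**Figure D2:**
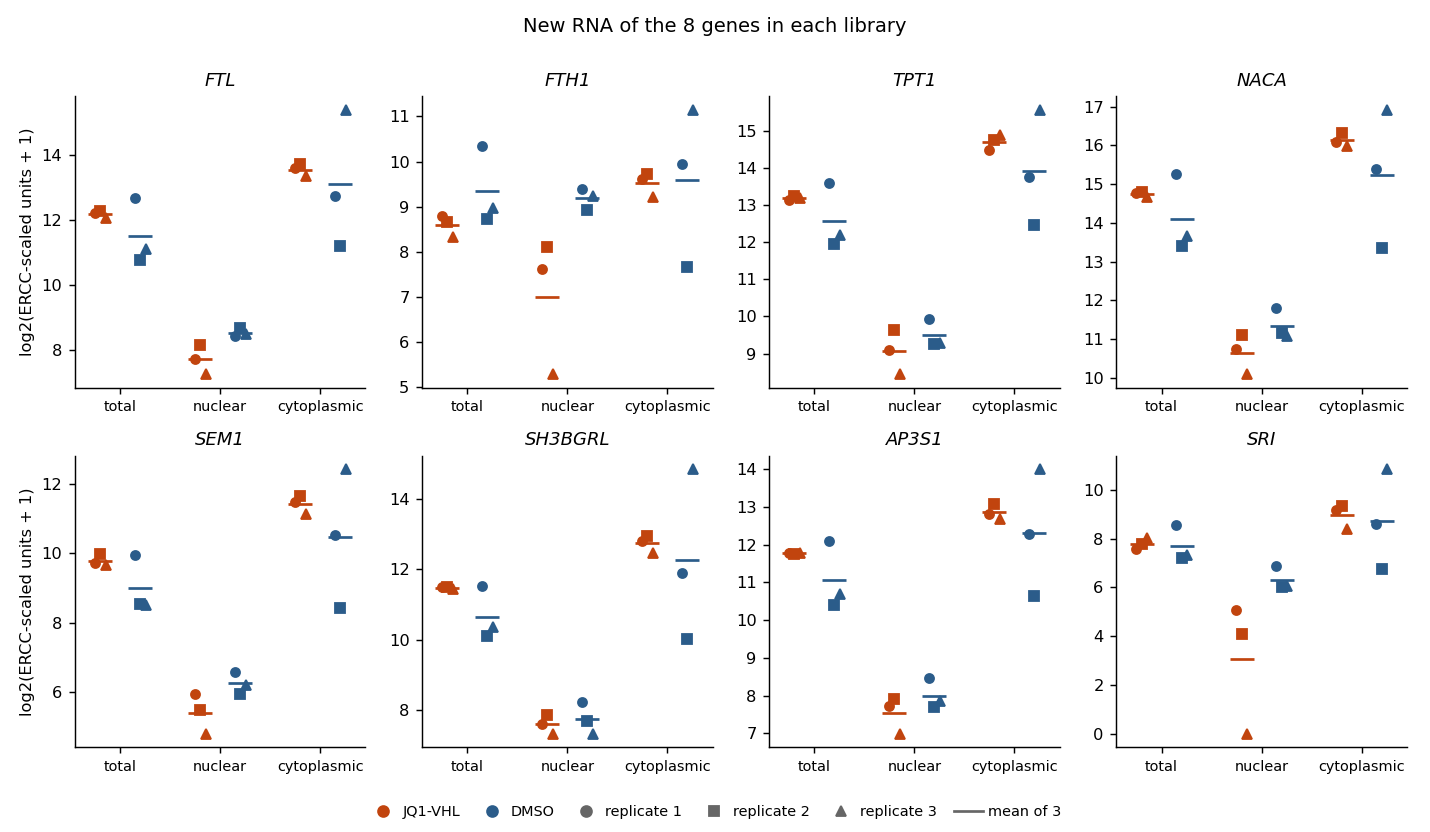
Each panel plots log2(units + 1) of 1 gene in the 3 libraries of each group (points, by replicate) with their mean (bar), by RNA fraction, JQ1-VHL left of DMSO. In cytoplasmic RNA of every gene DMSO replicate 3 is the highest point and DMSO replicate 2 the lowest, and SRI is at 0 in JQ1-VHL nuclear replicate 3.

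Total RNA took no part in the choice of the genes, and there their summed share of new RNA was higher under JQ1-VHL. The 8 genes made up 0.816, 0.942 and 0.859% of all units in the JQ1-VHL total libraries, and 0.630, 0.717 and 0.717% in the DMSO total libraries. NACA held most of this sum, with means of 0.486% under JQ1-VHL and 0.380% under DMSO. The mean share was higher under JQ1-VHL in 6 genes. It was lower for FTH1, at 0.0068% against 0.0142%, and for SRI, at 0.0039% against 0.0045%. On the ERCC scale none of the 8 passed the test, limma with Benjamini-Hochberg adjustment over all tested genes at 0.05, while 3.03% of all genes did. The limma SE pools the spread of all 6 groups, nuclear and cytoplasmic libraries included, so a gene has the same SE in each fraction. Its p-values in total RNA thus draw on the libraries that chose the genes. None of the 8 had an unadjusted p under 0.05, and edgeR on the recovered reads on this scale called 0 of them too. All 8 overlapped between treatments in ERCC units, in which DMSO replicate 1 was the highest DMSO library for each gene, whereas every JQ1-VHL library was above every DMSO library in 1.26% of all genes and below in 24.8%. Every log2 change was between -0.76 for FTH1 and 0.81 for SH3BGRL, with a median of 0.66 beside -0.49 over all tested genes.

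The same test was run on rescaled units, in which each library was divided by a factor that equates it with the others over the typical gene. There 4 of the 8 rose in total RNA under JQ1-VHL, NACA, AP3S1, SEM1 and TPT1, where 12.2% of all genes rose. NACA held 21076, 27955 and 24537 rescaled units in the JQ1-VHL libraries and 11698, 13216 and 13075 in the DMSO libraries. Its groups did not overlap, and its log2 change was 0.95 ± 0.26 (SE, n = 3 each, limma adjusted p = 0.0122). AP3S1 held 2643, 3368 and 3311 rescaled units under JQ1-VHL and 1318, 1661 and 1668 under DMSO, again with no overlap. Its log2 change was 1.00 ± 0.28 (limma adjusted p = 0.0135). SEM1 held 626, 986 and 767 rescaled units under JQ1-VHL and 296, 454 and 369 under DMSO. All JQ1-VHL libraries of SEM1 lay above all DMSO libraries, and its log2 change was 1.08 ± 0.33 (limma adjusted p = 0.0215). TPT1 held 6729, 9616 and 8795 rescaled units under JQ1-VHL and 3717, 4796 and 4791 under DMSO. The TPT1 groups were apart, and its log2 change was 0.91 ± 0.33 (limma adjusted p = 0.0425). Between same-numbered libraries, which share a batch label, these changes varied little: 1.00 ± 0.02 for AP3S1, 1.08 ± 0.03 for SEM1, 0.91 ± 0.08 for TPT1 and 0.95 ± 0.12 for NACA (SD, n = 3 pairs).

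FTL and SH3BGRL had changes of that size without passing the limit. FTL held 3533, 4923 and 4038 rescaled units under JQ1-VHL and 1969, 2147 and 2232 under DMSO, a log2 change of 0.97 ± 0.40 (limma adjusted p = 0.0751). SH3BGRL held 2165, 2829 and 2604 rescaled units under JQ1-VHL and 878, 1343 and 1337 under DMSO, a log2 change of 1.11 ± 0.42 (limma adjusted p = 0.0535). In both genes the groups did not overlap. With the replicate number as a block the limma adjusted p was 0.0186 for FTL and 0.0158 for SH3BGRL. In all, 6 of the 8 genes had every JQ1-VHL library above every DMSO library in rescaled units, as had 25.4% of all genes. As a percentage of all units in the library the same was seen for 6 of the 8 and for 7.96% of all genes, while FTH1 had every JQ1-VHL library below every DMSO library, as had 54.9% of all genes.

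FTH1 and SRI did not pass the test in total RNA. FTH1 held 329, 397 and 302 rescaled units under JQ1-VHL and 392, 519 and 507 under DMSO, groups that overlapped by 1 library, and its log2 change was -0.46 ± 0.27 (limma adjusted p = 0.203). SRI held 141, 213 and 244 rescaled units under JQ1-VHL and 113, 177 and 161 under DMSO, and its log2 change was 0.39 ± 0.91 (limma adjusted p = 0.759). That SE includes the spread of the nuclear libraries of SRI, 1 of them at 0 reads. Between same-numbered total libraries the change of SRI was 0.39 ± 0.18 (SD, n = 3 pairs). The median log2 change of the 8 on this scale was 0.96, beside -0.19 over all tested genes. Relative to the all-gene median the changes ran, on both scales, from -0.27 for FTH1 to 1.30 for SH3BGRL. The count of 4 fell to 1 when only the highest interval of each gene was used, which called FTH1, lower at -1.05 (limma adjusted p = 0.00992), and the all-gene median was then -0.33. It was 1 without JQ1-VHL replicate 2, without JQ1-VHL replicate 3 or without DMSO replicate 1, and 2 without DMSO replicate 3.

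**Figure D3:**
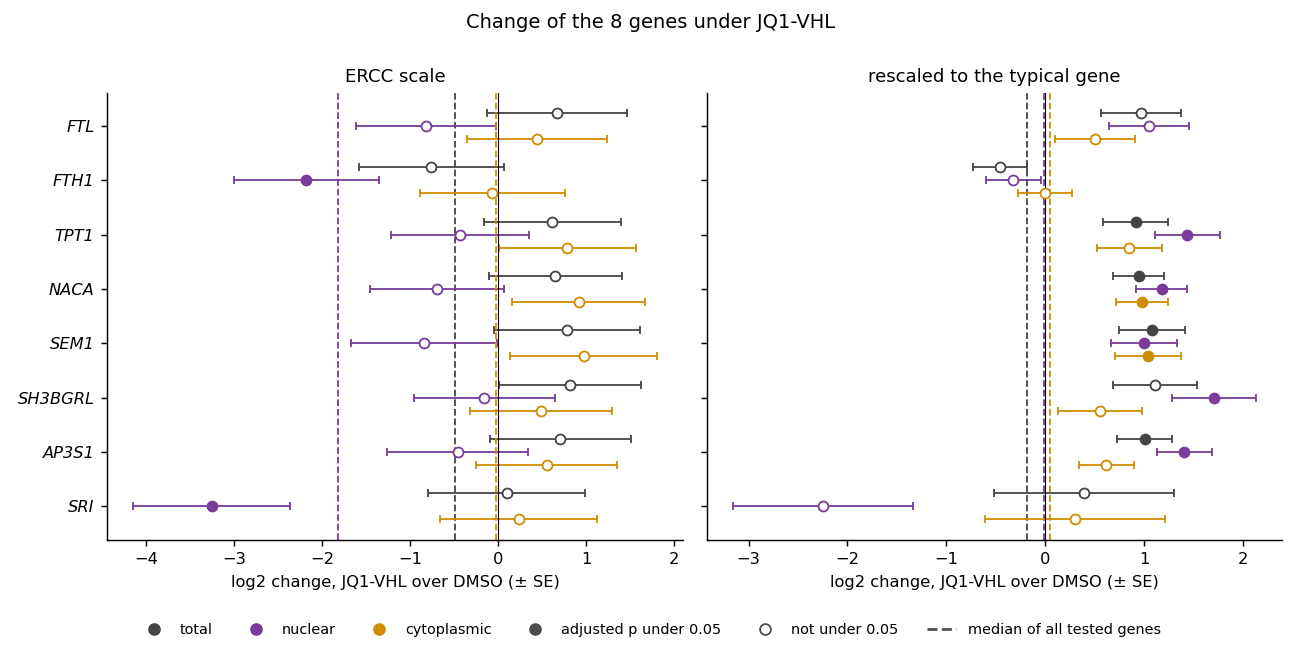
The log2 change of each gene under JQ1-VHL relative to DMSO (point ± SE, filled where the limma adjusted p was under 0.05) is plotted for total, nuclear and cytoplasmic RNA, on the ERCC scale (left) and rescaled (right), with dashed lines at the median change of all tested genes. On the rescaled side 6 genes lie to the right of the lines in each fraction, from 0.50 to 1.71, while FTH1 lies at or left of 0 and SRI has the widest errors. On the ERCC side the nuclear change of all 8 is below 0, from -3.26 to -0.16, and the filled nuclear point of SRI shows values that took part in its choice.

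The ratio of the ferritin chains was lower in every JQ1-VHL than in every DMSO library of total RNA. A ratio within a library does not depend on how the library is scaled, although its level depends on the intervals counted for each gene. The log2 ratio of FTH1 to FTL was -3.42, -3.63 and -3.74 in the JQ1-VHL total libraries and -2.33, -2.05 and -2.14 in the DMSO total libraries. The groups did not overlap and the difference was -1.43, with an exact two-sided permutation p of 0.1 (0.15 after Benjamini-Hochberg adjustment over the 3 fractions). That p is the smallest that 3 against 3 libraries allow. Each of the 2 intervals of FTH1, set against each of the 3 intervals of FTL, gave a lower mean ratio under JQ1-VHL in total RNA, by -1.08 to -1.63.

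The nuclear and cytoplasmic libraries helped to choose the genes, so tests of the ratio in them are not independent of the choice. The share of other gene pairs with groups apart was not taken in any fraction. In nuclear RNA the log2 ratio of FTH1 to FTL was -0.11, -0.05 and -1.99 under JQ1-VHL and 0.97, 0.26 and 0.74 under DMSO. Every JQ1-VHL value was below every DMSO value and the difference was -1.37. The exact permutation p was 0.1, or 0.15 after Benjamini-Hochberg adjustment. Without JQ1-VHL replicate 3, the library with the fewest reads, the difference was -0.74. Cytoplasmic RNA gave log2 ratios of -3.98, -3.99 and -4.13 under JQ1-VHL and of -2.80, -3.53 and -4.25 under DMSO. These groups overlapped, the difference was -0.51 and the exact permutation p was 0.4. The SD over 3 libraries was 0.08 for JQ1-VHL and 0.72 for DMSO. Without DMSO replicate 1 the cytoplasmic difference was -0.14, and without DMSO replicate 3 it was -0.87.

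**Figure D4:**
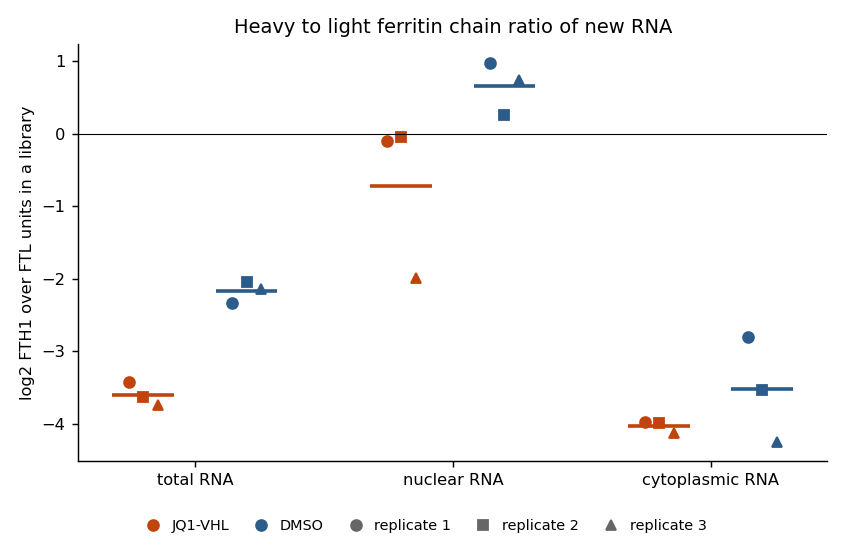
The log2 ratio of FTH1 to FTL units within each library (points, by replicate) is plotted with the mean of 3 (bar) by RNA fraction, JQ1-VHL left of DMSO. The total RNA groups are apart, at -3.74 to -3.42 for JQ1-VHL and -2.33 to -2.05 for DMSO, and the cytoplasmic groups overlap.

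Nuclear new RNA of most genes was lower under JQ1-VHL on the ERCC scale, and among the 8 genes FTH1 fell. The nuclear and cytoplasmic libraries supplied the values that chose the genes, so the changes in these fractions are not independent of the choice. SRI stood high in the cytoplasmic order through its low nuclear values under JQ1-VHL, so its nuclear change is given without a test. Of the other 7, FTH1 passed the test, where 33.7% of all genes were called lower. FTH1 held 195, 274 and 38.0 units in JQ1-VHL nuclear RNA and 672, 485 and 601 units in DMSO nuclear RNA. Its groups were apart, and its log2 change was -2.18 ± 0.83 (limma adjusted p = 0.0317). SRI held 32.4, 16.1 and 0 units under JQ1-VHL, from 61, 25 and 0 reads, and 116, 64.0 and 64.9 units under DMSO, from 142, 114 and 138 reads. The fitted log2(units + 1) change of SRI was -3.26 ± 0.89, a size that depends on the unit added to the library at 0 reads, and it was -1.73 without that library, JQ1-VHL replicate 3. FTL also had all JQ1-VHL libraries below all DMSO libraries, at 210, 285 and 151 units against 342, 405 and 361 units, with a log2 change of -0.82 ± 0.80 (limma adjusted p = 0.365). Every JQ1-VHL library was thus below every DMSO library for 3 of the 8, FTL, FTH1 and SRI, and for 71.2% of all genes. The other 5 genes had log2 changes of -0.84 to -0.16, and the median of the 8 was -0.76 beside -1.82 over all tested genes. Relative to that all-gene median SH3BGRL stood 1.66 higher on the log2 scale and FTL 1.00 higher, while FTH1 stood at -0.36 and SRI at -1.44. FTH1 was not called without JQ1-VHL replicate 3, the library with 30.5% of intervals at 0, without any 1 of the 3 DMSO replicates, or by edgeR on the recovered reads (adjusted p = 0.0745).

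Relative to the typical nuclear gene, 5 of the 8 rose under JQ1-VHL in rescaled units, where 18.2% of all genes did. These 5 genes had log2 changes below 0 on the ERCC scale, so the direction depends on the scale. The nuclear libraries helped to choose the genes, so these tests are not independent of the choice. AP3S1 held 429, 360 and 718 rescaled units in JQ1-VHL nuclear RNA and 150, 179 and 219 in DMSO nuclear RNA, a log2 change of 1.41 ± 0.28 (limma adjusted p = 0.00122). NACA held 3503, 3305 and 6207 rescaled units under JQ1-VHL and 1518, 1973 and 2082 under DMSO, a log2 change of 1.18 ± 0.26 (limma adjusted p = 0.00254). TPT1 held 1132, 1174 and 1980 rescaled units under JQ1-VHL and 417, 537 and 593 under DMSO, a log2 change of 1.44 ± 0.33 (limma adjusted p = 0.0034). In these 3 genes JQ1-VHL replicate 3 was the highest library, and all JQ1-VHL libraries were above all DMSO libraries. SH3BGRL held 401, 347 and 917 rescaled units under JQ1-VHL and 129, 181 and 154 under DMSO, a log2 change of 1.71 ± 0.42 (limma adjusted p = 0.00579). SEM1 held 125, 64.5 and 152 rescaled units under JQ1-VHL and 40.8, 52.8 and 69.3 under DMSO, a log2 change of 1.00 ± 0.33 (limma adjusted p = 0.0296). SEM1 overlapped by its JQ1-VHL replicate 2 and rests on 56 to 114 reads under JQ1-VHL and 108 to 154 under DMSO.

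FTL and FTH1 did not pass on this scale. FTL held 432, 425 and 865 rescaled units in JQ1-VHL nuclear RNA and 147, 353 and 345 in DMSO nuclear RNA. The FTL groups did not overlap, and its log2 change was 1.05 ± 0.40 (limma adjusted p = 0.0556, and 0.012 with the replicate number as a block). The log2 change was -0.32 ± 0.27 for FTH1 (limma adjusted p = 0.383) and, again without a test, -2.25 ± 0.91 for SRI, with SRI libraries at 0 to 66.7 rescaled units under JQ1-VHL and 49.9 to 62.1 under DMSO. In all, 5 of the 8 genes had every JQ1-VHL library above every DMSO library in rescaled units, beside 29.5% of all genes. As a percentage of all units, TPT1, NACA, SH3BGRL and AP3S1 had every JQ1-VHL nuclear library above every DMSO one, beside 11.4% of all genes, and FTH1 and SRI below, beside 49.1%. The median log2 change of the 8 in rescaled units was 1.11 beside -0.01 over all tested genes. The call of SEM1 was lost with the highest interval of each gene alone, with edgeR and TMM, with the 6 nuclear libraries alone and with a factor taken within the fraction, and FTH1 was called lower with the highest interval (-0.97, limma adjusted p = 0.0115).

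Cytoplasmic new RNA of the 8 genes did not differ between treatments beyond the spread of the DMSO libraries on the ERCC scale. The cytoplasmic libraries helped to choose the genes, so tests in them are not independent of the choice. None of the 8 passed the limma test, as against 3.90% of all genes, none had an unadjusted p under 0.05, and edgeR on the recovered reads called 0. SH3BGRL held 7217, 7930 and 5670 units under JQ1-VHL and 3851, 1037 and 29395 units under DMSO. FTL held 12404, 13406 and 10448 units under JQ1-VHL and 6861, 2346 and 43227 units under DMSO. In both genes the JQ1-VHL libraries lay between the extremes of the DMSO libraries, and all 8 genes overlapped. Groups were apart in 1.37% of all genes with JQ1-VHL above and in 5.98% with JQ1-VHL below. The median log2 change of the 8 was 0.52 beside -0.02 over all tested genes. Without DMSO replicate 2 the log2 changes of FTL, NACA, SEM1, SH3BGRL, AP3S1 and SRI were below 0, at -0.75 to -0.02.

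After rescaling, NACA and SEM1 rose in cytoplasmic RNA, 2 of the 8, where 14.8% of all genes rose. As these libraries took part in the choice of the genes, the count and its p-values do not stand apart from that choice. NACA held 50288, 52174 and 82618 rescaled units in JQ1-VHL cytoplasmic RNA and 22755, 29846 and 41800 in DMSO cytoplasmic RNA, a log2 change of 0.98 ± 0.26 (limma adjusted p = 0.00908). SEM1 held 2063, 2023 and 2864 rescaled units under JQ1-VHL and 781, 966 and 1842 under DMSO, a log2 change of 1.03 ± 0.33 (limma adjusted p = 0.0256). The groups of both genes were apart. TPT1 was apart as well, at 16491, 17534 and 38355 rescaled units under JQ1-VHL and 7296, 15983 and 16325 under DMSO, with a log2 change of 0.85 ± 0.33 (limma adjusted p = 0.057). Groups without overlap in that direction were found for 3 of the 8 genes and 18.8% of all genes. As a percentage of all units only NACA was apart upwards, beside 3.05% of all genes, and FTH1 was apart downwards, beside 30.1%. The log2 change of AP3S1 was 0.62 ± 0.28 (limma adjusted p = 0.0995), that of SH3BGRL 0.55 ± 0.42, that of FTL 0.50 ± 0.40, that of SRI 0.30 ± 0.91 and that of FTH1 0.00 ± 0.27, none past the limit. The count was 4 with the replicate number as a block, which added TPT1 (limma adjusted p = 0.00713) and AP3S1 (limma adjusted p = 0.0205). It was 6 without DMSO replicate 3, the library with the most units, 1 without JQ1-VHL replicate 3 and 0 without DMSO replicate 1.

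As a description, the log2 cytoplasmic over nuclear ratio itself was higher under JQ1-VHL by 3.49 ± 1.03 for SRI and by 2.12 ± 0.71 for FTH1 (SD, n = 3 pairs). The all-gene median of the ratio was higher under JQ1-VHL as well, at 1.91 beside 0.16 under DMSO. The SRI value depends on the unit added to the nuclear library at 0 reads. Mean shifts were 1.01 ± 1.35 for AP3S1, 1.22 ± 0.94 for TPT1, 1.61 ± 1.47 for NACA and 1.81 ± 1.80 for SEM1. SH3BGRL had the least mean shift, 0.65, with pairs of 1.53, 2.77 and -2.36. For FTL the pairs were 1.56, 3.02 and -0.80. The third pair of both genes holds DMSO cytoplasmic replicate 3, in which SH3BGRL took 0.158% of all units, against 0.0446 and 0.0576% in the other DMSO cytoplasmic libraries. FTL took 0.232% there, against 0.0795 and 0.130% in the others, whereas FTH1 took 0.0122%, against 0.0114 and 0.0112%.

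The table gives each gene as numbered intervals, which lets the 2 unlike genes be looked at more closely. FTH1 has 2 intervals. Interval 1 had a mean log2 cytoplasmic over nuclear ratio of 1.86 under JQ1-VHL and -0.32 under DMSO, and interval 2 had 3.79 under JQ1-VHL and 2.06 under DMSO. The nuclear libraries held 135 ± 96 units of interval 1 under JQ1-VHL and 493 ± 78 under DMSO. For interval 2 they held 34.0 ± 24.8 units under JQ1-VHL and 92.6 ± 30.3 under DMSO. The nuclear reads of FTH1 thus lay mostly in interval 1, whereas the cytoplasmic means of the intervals under DMSO were 585 and 568 units. FTL had ratios of 5.74, 5.81 and 5.87 under JQ1-VHL and of 4.15, 4.39 and 4.80 under DMSO in its 3 intervals.

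SRI has 7 intervals, of which 1 to 3 were unlike 4 to 7. Intervals 4 to 7 had log2 ratios of 4.59 to 5.39 under JQ1-VHL and of 2.68 to 3.36 under DMSO. Interval 1 had 0.15 under JQ1-VHL and -2.52 under DMSO, the lowest of all intervals of the 8 genes under each treatment. It held 0, 2 and 0 reads in JQ1-VHL nuclear RNA and 40, 26 and 32 reads in DMSO nuclear RNA. In total RNA it held 0, 0 and 1 read under JQ1-VHL and 31, 18 and 11 reads under DMSO, while SRI interval 5 held 46, 57 and 67 reads under JQ1-VHL and 47, 69 and 67 under DMSO. Reads of interval 1 were thus fewer in every JQ1-VHL library than in every DMSO library of total and of nuclear RNA, and those of interval 5 in total RNA overlapped. In nuclear RNA interval 5 was fewer as well, at 21, 7 and 0 reads under JQ1-VHL and 29, 25 and 38 under DMSO. The nuclear libraries held 2.88, 3.15 and 1.58 M reads in all under JQ1-VHL and 5.93, 4.55 and 4.95 M under DMSO. The share of all intervals with groups apart was not taken. NACA interval 8 had a log2 ratio of 2.27 under JQ1-VHL and 1.84 under DMSO, below its other 7 intervals, at 5.34 to 6.44 under JQ1-VHL and 3.55 to 4.08 under DMSO. Every interval of SH3BGRL and AP3S1 had a ratio of at least 4.97 under JQ1-VHL and 3.73 under DMSO. Neighbouring intervals of the 8 genes held sums within 2% of each other in 14 of 34 pairs in cytoplasmic RNA and in 2 of 34 in nuclear RNA, so a fragment may be counted in more than 1 interval of a summed gene.

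**Figure D5:**
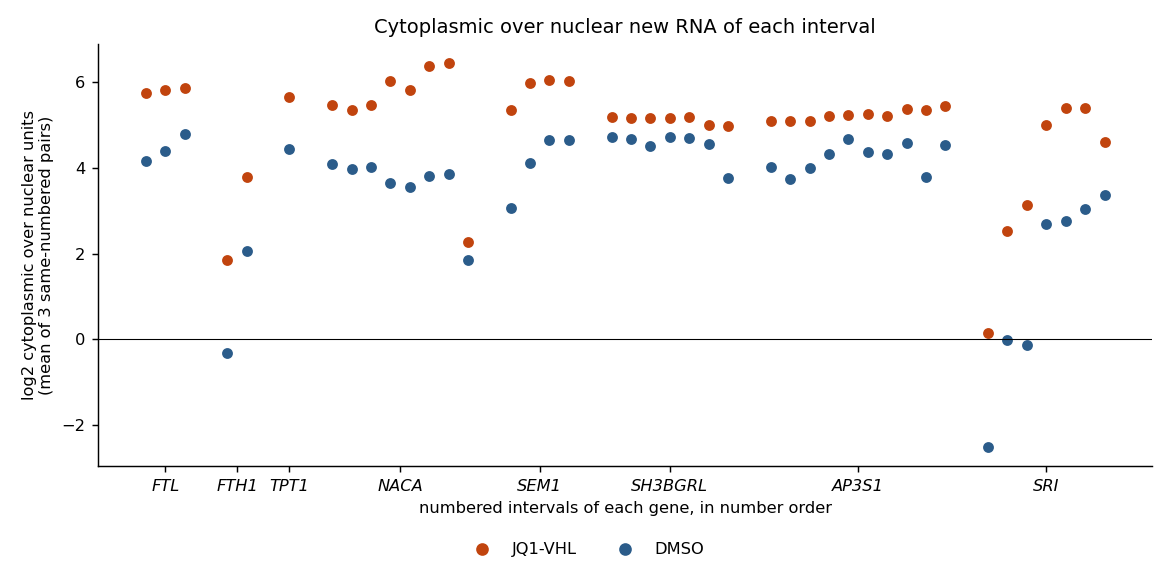
The mean log2 ratio of cytoplasmic to nuclear units (3 pairs, 1 unit added to each value) is plotted for each numbered interval of the 8 genes under JQ1-VHL and under DMSO. FTH1 interval 1, NACA interval 8 and SRI intervals 1 to 3 lie below the other intervals of the same gene.

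The wider families of the 8 genes were listed with earlier results of these data known, and each counts the genes of the 8 that belong to it. Results are given as counts in rescaled units, with changes on the log2 scale. Of 15 terminal oligopyrimidine mRNAs other than ribosomal proteins, 10 rose in total RNA under JQ1-VHL, TPT1 and NACA among them, and none fell. Of all genes 12.2% rose and 18.4% fell. The median log2 change of the 15 was 0.91, the value of TPT1, beside -0.19 over all tested genes. PABPC1, the poly(A) binding protein, was the highest at 1.07 ± 0.21 (limma adjusted p = 0.00237), and the elongation factor EEF1B2 was the lowest at -0.60 ± 0.25 (limma adjusted p = 0.0771). BTF3, the beta partner of NACA in the nascent chain complex, rose by 1.00 ± 0.25 (limma adjusted p = 0.00857). In nuclear RNA 13 of the 15 rose, where 18.2% of all genes rose, and in cytoplasmic RNA 9, where 14.8% rose, with medians of 1.35 and 0.81. TPT1 and NACA were among the 13 and NACA among the 9, and the libraries of these fractions took part in their choice. On the ERCC scale none of the 15 passed limma's test in any fraction. The count in total RNA was 5 without JQ1-VHL replicate 2, 6 without JQ1-VHL replicate 3 or DMSO replicate 1, and 3, with 1 gene lower, with the highest interval of each gene, and in cytoplasmic RNA it was 4 without DMSO replicate 1 and 3 with the 6 cytoplasmic libraries alone. Of 69 tested ribosomal protein genes 35 rose and 5 fell in total RNA, where 12.2% of all genes rose and 18.4% fell. In nuclear RNA 42 rose, where 18.2% of all genes rose. In cytoplasmic RNA 31 rose and 2 fell, where 14.8% of all genes rose and 15.9% fell. The medians in total, nuclear and cytoplasmic RNA were 0.71, 1.12 and 0.65. Their count of higher genes in total RNA was 15 without JQ1-VHL replicate 2, 22 without JQ1-VHL replicate 3 and 21 without DMSO replicate 1. In cytoplasmic RNA it was 16 without JQ1-VHL replicate 3, 12 without DMSO replicate 1 and 17 without DMSO replicate 2. With the highest interval of each gene alone it was 9 in either of these fractions.

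Of 16 tested iron genes, 1 rose and 3 fell in total RNA, where 12.2% of all genes rose and 18.4% fell, and the share that fell was thus near that of all genes. Their median was -0.47 beside -0.19 over all tested genes. TFRC, the transferrin receptor, fell by 1.03 ± 0.30 on the log2 scale in total RNA (limma adjusted p = 0.0177) and by 1.52 ± 0.30 in cytoplasmic RNA (limma adjusted p = 0.00163). FBXL5, which targets an iron regulatory protein for degradation, fell by 1.54 ± 0.33 in total RNA (limma adjusted p = 0.00352). BLVRB, a biliverdin reductase, fell by 0.88 ± 0.25 (limma adjusted p = 0.0147). PCBP2, an iron chaperone and RNA-binding protein, rose by 0.92 ± 0.26 in total RNA (limma adjusted p = 0.0147). ACO1 and IREB2, the iron regulatory proteins, had log2 changes of 0.87 ± 0.43 and 0.32 ± 0.20 in total RNA and did not pass. On the ERCC scale 7 of the 16 fell in nuclear RNA, FTH1 among them, where 33.7% of all genes fell, and their median was -1.95 beside -1.82 over all tested genes. None of the 16 was called there without JQ1-VHL replicate 3 or without DMSO replicate 1. In total RNA PCBP2 was not called without JQ1-VHL replicate 2, without JQ1-VHL replicate 3 or without DMSO replicate 1, and without JQ1-VHL replicate 3 the list had 1 lower call. With the replicate number as a block 2 of the 16 rose and 5 fell in total RNA.

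Among 23 tested genes of the proteasome lid and base and of TREX-2, SEM1 included, 11 rose in total RNA, where 12.2% of all genes rose, and 5 fell, near the 18.4% of all genes that fell. SEM1 was the highest, and CETN3, a centrin that binds the TREX-2 scaffold, was the lowest at -2.22 ± 0.59 (limma adjusted p = 0.0106). MCM3AP, that scaffold, rose by 0.90 ± 0.22 in total RNA (limma adjusted p = 0.00685) and by 1.56 ± 0.22 in nuclear RNA (limma adjusted p = 7.32e-05). The lid subunit PSMD3 fell by 1.03 ± 0.33 (limma adjusted p = 0.0264) and the ATPase subunit PSMC1 by 2.21 ± 0.53 (limma adjusted p = 0.00611), while PSMD4, a ubiquitin receptor of the proteasome, rose by 0.93 ± 0.22 (limma adjusted p = 0.00536). Higher calls in total RNA numbered 6 without JQ1-VHL replicate 2, 7 without JQ1-VHL replicate 3 or DMSO replicate 3, and 1 with the highest interval of each gene. Lower calls numbered 3 without JQ1-VHL replicate 2, 1 without JQ1-VHL replicate 3 and 2 without DMSO replicate 1 or 2. Of 9 AP-3 and sigma subunit genes, AP3S1, AP3B1 (0.92 ± 0.28, limma adjusted p = 0.0213) and AP3D1 (0.79 ± 0.18, limma adjusted p = 0.0048) rose in total RNA, where 12.2% of all genes rose. AP3M2 fell by 3.25 ± 0.88 (limma adjusted p = 0.0113) and AP2S1 by 1.47 ± 0.54 (limma adjusted p = 0.0474), where 18.4% of all genes fell. With the highest interval of each gene none of the 9 rose and 1 fell, and over all alternatives run the lower calls numbered 0 to 3. Without JQ1-VHL replicate 3 or DMSO replicate 1 the AP-3 list had 1 higher and 1 lower call, and without JQ1-VHL replicate 2 or DMSO replicate 2 it had 1 lower call. Of 7 penta-EF-hand genes, CAPN1, a calpain, rose by 0.96 ± 0.32 in total RNA (limma adjusted p = 0.0285) and CAPNS1, the small calpain subunit, was lowest at -1.27 ± 0.52 (limma adjusted p = 0.071). CAPN1 was called in total RNA with all libraries but in none of 5 fits that left out 1 of JQ1-VHL replicates 2 and 3 or DMSO replicates 1 to 3. SH3BGR, the other tested relative of SH3BGRL, had a log2 change of 0.32 ± 0.68 and did not pass.

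Over the 18 rescaled libraries the 6 genes with high ratios followed each other, with Pearson correlations of 0.979 to 0.996 between pairs. The correlations of FTH1 with the other genes were 0.46 to 0.72, and those of SRI 0.60 to 0.72. These correlations are descriptions over 18 libraries that share fraction, treatment and batch. The genes nearest to the mean profile of the 8 were SUB1, SRSF9, TPD52, VTI1B, NFU1 and CACYBP, at 0.993 to 0.994. The nearest single gene was RPS12 for FTL (0.995) and for AP3S1 (0.996), AP3S1 for TPT1 (0.996), ANP32B for NACA (0.998), HAUS1 for SEM1 (0.997) and HSPB1 for SH3BGRL (0.993). The nearest genes of FTH1 and SRI were less like them, EEIG1 at 0.872 and USP31 at 0.951.

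In the GENCODE 29 annotation of GRCh38 the 8 genes had a median of 8 exon blocks, beside 12 over 9328 tested protein-coding genes. FTL lies on chromosome 19 (48965301 to 48966878, plus strand) and FTH1 on chromosome 11 (61959718 to 61967660, minus strand). TPT1 lies on chromosome 13 (45333471 to 45341370, minus strand), NACA on chromosome 12 (56712428 to 56731628, minus strand) and AP3S1 on chromosome 5 (115841481 to 115914081, plus strand). SEM1 (96481626 to 96709891) and SRI (88205118 to 88226993) are both on the minus strand of chromosome 7, and SH3BGRL is on chromosome X (81201943 to 81298547, plus strand). Pseudogenes named after them number 25 for FTH1, 16 for FTL, 14 for TPT1, 6 for NACA, 3 for SRI and 1 for SEM1, and how reads shared with these copies were counted is not given in the sources used here. FTH1 overlaps BEST1 and AP3S1 overlaps ATG12 on the opposite strand, and NACA overlaps PRIM1 and AC117378.1 on its own strand. The strand counted is not given either, so reads of such neighbours cannot be told apart from those of the 3 genes.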

How the data were processed

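Per the file name and the labels, the authors deposited T-to-C read values per numbered gene interval, scaled by ERCC RNA, a signal from which whole reads were recovered (100% of values within 0.01 of a read). Comparisons had been planned for genes, and the 98665 intervals were summed to 12755 gene IDs, of which 12512 had a symbol. The submitters' processing notes list GRCh37/hg19 and dm3 as builds and, as tools, Trimmomatic 0.39, bcl2fastq, HTSeq, HISAT2 and DESeq2, with no roles. Genes with a mean of at least 10 units were tested with limma 3.58.1 (R 4.3.3; trend, robust eBayes) on log2(value + 1), 6 group means over 18 libraries, two-sided, Benjamini-Hochberg adjusted at 0.05, on ERCC and on rescaled units (median-of-ratios factors). A pseudocount of 1 understates changes of low genes. Alternatives included edgeR 4.0.16 and DESeq2 1.42.0 on recovered reads, and fits were tested on simulated data. The members and lists were chosen with earlier results of these data known. All 8 genes are named. Of the lists only some genes are named, so those named are not all that were called. Replicate numbers carry batch labels, so they pair the libraries; deviations of same-numbered libraries correlated at 0.0754 to 0.222 in total, -0.145 to 0.287 in nuclear and -0.0533 to 0.062 in cytoplasmic RNA (ERCC scale). Nothing says whether replicates were separate cultures, so p-values measure the spread between libraries.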

Additional observations from a re-analysis of the deposited data

How the results depend on the processing

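No change of the 8 genes that passed the test, and no difference of the FTH1 to FTL ratio, changed sign under the alternatives run. Changes that had not passed did so in places, most of them on the ERCC scale: without DMSO replicate 2, 6 of the 8 had cytoplasmic log2 changes of -0.75 to -0.02. On the ERCC scale, counts of called genes among the 8 were 0 in total and cytoplasmic RNA in every fit that left out 1 library. In nuclear RNA on that scale FTH1 was not called without JQ1-VHL replicate 3, without any 1 of the 3 DMSO replicates, or by edgeR on recovered reads. Rescaled, leaving out 1 library gave counts among the 8 of 1 to 4 in total, 4 to 7 in nuclear and 0 to 6 in cytoplasmic RNA. The nuclear counts were taken over all 8, SRI included, whose nuclear change is given without a test. With the highest interval of each gene alone no higher call was left among the 8 in total or cytoplasmic RNA, the rescaled counts being 1, FTH1 lower, in total and 0 in cytoplasmic RNA, and the total RNA difference of the log2 FTH1 to FTL ratio was -1.63. In cytoplasmic RNA the rescaled count was 4 with the replicate block, 0 with the 6 libraries of the fraction alone and 1 with a factor taken within the fraction. In the other fractions the block moved no count of called genes among the 8 by over 1.5 times. On the rescaled values it did add calls, of FTL and SH3BGRL in total RNA and of FTL in nuclear RNA. The cause of these moves was not tested. Counts of 0 to 61 reads limit SRI in nuclear JQ1-VHL RNA, and 3 libraries a group limit every exact test to 0.1.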
